A study of Mus musculus with 27 samples.

Results

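Whole retinas of wild type C57BL/6J mice were compared on either side of birth, with 3 libraries at embryonic day 17 (E17) and 4 at postnatal day 1 (P1) out of 27 libraries that span 7 ages from E14 to P60. C57BL/6J is an inbred laboratory strain, and no gene was altered and no agent given in either group. Both ages were processed alike, from retinas pooled before extraction and taken in the light phase between 14 and 18 hours on a 12 h cycle of light and dark. The labels give 3 retinas per library, whereas the study's methods describe larger pools, so the number of animals behind a library is uncertain. Those methods also state that samples up to P1 were of mixed sexes, because sex could not be judged by eye. Values are CPM, a read count divided by its library's total on a fixed scale, and a feature is one entry of the deposited table, usually a gene. Of 38168 features, 31760 had at least 1 CPM in at least 3 of the 27 libraries and were tested, and 19468 of these lie on an autosome.

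The mouse retina is built from 1 pool of dividing progenitor cells that give rise to ganglion cells, cones, horizontal cells and many amacrine cells before birth, and to rods, bipolar cells and Müller glia mainly around and after birth. Rods, by far the most common neuron of the mouse retina, are specified by the transcription factors OTX2, CRX, NRL and NR2E3. At birth the retina also meets breathing, suckling and, in mice, the first blood vessels growing in from the optic nerve head, since the embryonic retina has no vessels of its own.

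Libraries held 9656705 to 11330762 reads at E17 and 7931765 to 8842284 at P1, and 3 reads corresponded to 0.265 to 0.311 CPM and 0.339 to 0.378 CPM. A value of 0 therefore allows up to that level, and such limits cover counting error only. Xist, the noncoding RNA of the inactive X chromosome, measured 595, 416 and 404 CPM at E17 and 1.59, 1.26, 1093 and 1.301 CPM at P1. The Y-linked gene Uty measured 60.8, 77.2 and 81.2 CPM at E17 and 126, 132, 0.226 and 135 CPM at P1, so P1 replicate 3 looked female, the other 3 libraries of P1 male, and each library at E17 mixed. By these genes no P1 library looked like a pool of both sexes, although the methods describe mixed sexes at P1. E17 replicate 2 held 13464 CPM of the ribosomal RNA Rn18s against 85.8 to 557 CPM in the other 6 libraries. The counts of changed features and those of the 20 main gene lists were also taken without each library in turn, with Xist as a covariate and under other scalings of the libraries. For the marker lists, the motif counts and the groups said to be picked after their values were seen, this was not done.

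Between E17 and P1 a modest number of large changes was seen, more of them upward. These ages also lie days of development apart, so birth and developmental age cannot be told apart here. With an adjusted p under 0.05 and at least a 2-fold change, 269 autosomal features were higher at P1 (1.38% of those tested) and 116 were lower (0.596%), together 1.98%. All adjusted p-values come from limma on log2(CPM + 1), fitted to the 27 libraries with age as the factor and adjusted over all 31760 features. By adjusted p alone, 1411 were higher (7.25%) and 803 lower (4.12%), and these 2 percentages are the background for the gene lists described here. The median log2 fold change over autosomal features was 0.03. In 268 of the 269 higher and all 116 lower features, no library of one age reached into the range of the other. Over all autosomal features, such separation was seen upward in 16.7% and downward in 11.7%. Changes of at least 4-fold numbered 27 upward and 4 downward.

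Most of the higher features were still rising at P1, whereas most of the lower ones had been at their highest in the embryo. Among the 269 higher features, the highest mean of the 7 ages fell at P1 in 74, at P6 in 57, and at P15, P28 or P60 in 47, 32 and 58. Among the 116 lower features, 70 had their highest mean at E14 and 30 at E17, and 25 had their lowest mean at P1. Protein-coding genes made up 235 of the higher and 102 of the lower features.

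**Figure D1:**
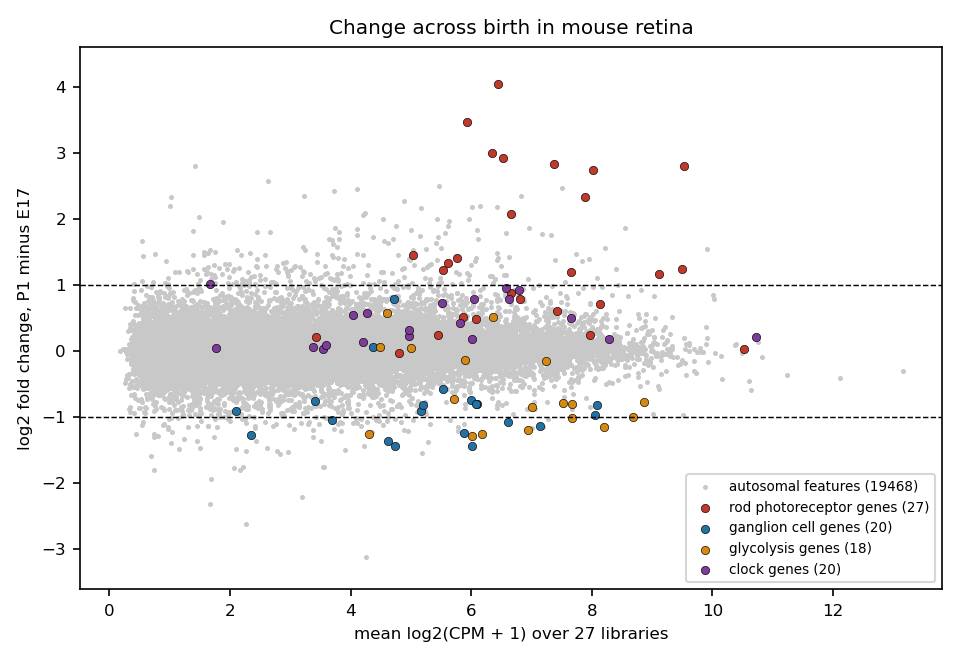
Each point is 1 of the 19468 autosomal features, with its mean level over all 27 libraries on the x axis and its log2 fold change from E17 to P1 on the y axis, and dashed lines mark 2-fold changes. Rod photoreceptor genes lie mostly above the cloud, from -0.03 up to 4.03, and ganglion cell and glycolysis genes lie mostly below it.

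Rod genes held the largest rises of the whole comparison. Of 27 rod photoreceptor genes tested, 22 were higher at P1 and none lower, 16 of them at least 2-fold, and the median log2 fold change of the list was 1.23. Across the 7 libraries, the summed level of the list was 1363 to 1376 CPM at E17 and 2396 to 2552 CPM at P1. In RNA from whole tissue, more rods and more RNA per rod cannot be told apart. Between 20 and 22 of the 27 genes were higher in every alternative fit.

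The transcription factors of the rod pathway rose in steps of different size. Nr2e3 (Gene ID 23958, chromosome 9, 59942771 to 59960834 in GRCm38), the nuclear receptor that represses cone genes in rods, measured 2.76, 5.74 and 3.83 CPM in the 3 libraries at E17 and 78.6, 85.3, 92.5 and 66.95 CPM in the 4 at P1. Every library at P1 held over 10 times the level of any library at E17, and the rise was 19.7-fold between the means (log2 fold change 4.03 ± 0.13, adjusted p = 2.0e-20). Nrl (chromosome 14, 55518978 to 55524981), which directs photoreceptor precursors to the rod fate, measured 3.68, 4.77 and 4.97 CPM at E17 and 41.7, 42.4, 42.5 and 35.5 CPM at P1, a rise of 9.06-fold (log2 fold change 2.93 ± 0.09, adjusted p = 2.1e-21).

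Upstream of these genes the changes were smaller, although the E17 and P1 libraries were again fully apart. Crx, the homeobox factor common to rods and cones, went from 175 ± 3.85 CPM (SD, n = 3) to 393 ± 19.04 CPM (SD, n = 4), with a log2 fold change of 1.16. Otx2, which acts before Crx, went from 207 ± 16.7 CPM to 317 ± 19.6 CPM, with a log2 fold change of 0.61. Neurod1, a basic helix-loop-helix factor of photoreceptors, and Prdm1, which holds back the bipolar fate, had log2 fold changes of 0.72 and 0.48.

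Samd7 and Samd11, which encode partners in a Polycomb complex of rods, rose together. Samd7 (chromosome 3, 30746293 to 30767174) measured 2.45, 3.88 and 4.14 CPM at E17 and 48.8, 62.4, 46.7 and 37.1 CPM at P1, 13.96-fold higher (log2 fold change 3.47 ± 0.14, adjusted p = 4.4e-18). Samd11 measured 16.5, 16.9 and 14.6 CPM at E17 and 82.9, 121, 100.1 and 74.2 CPM at P1, 5.92-fold higher (log2 fold change 2.47 ± 0.14, adjusted p = 2.2e-14). In both genes P1 replicate 4 was the lowest and P1 replicate 2 the highest of the 4 libraries. Samd11 overlaps Noc2l on the opposite strand, and since the use of strand in counting is not stated, their reads may be mixed. The same holds for other genes that overlap an annotated entry on the opposite strand, among them Nr2e3, Neurod1, Opn1sw, Gngt2, Thrb, Ebf1, Isl2, Gad1, Fgf15, Sfrp2, Rlbp1, Vcan, Irx2, Ano1, Aldoa (with Fam57b), Gpi1, Tpi1 (with Spsb2), Pfkp (with Pitrm1), Hk2, Bnip3, Per3, Nr1d1 (with Thra), Slc30a10, Pdgfra and Penk.

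Genes of the outer segment, the stack of membrane discs that captures light, formed the next group. Rp1, whose product organizes the axoneme and discs, measured 28.7, 31.4 and 30.1 CPM at E17 and 218, 217, 210.2 and 214 CPM at P1, and the 4 values at P1 lay within a narrow range (log2 fold change 2.80 ± 0.08, adjusted p = 2.8e-21). Prph2, a scaffold of the disc rim, measured 4.498, 6.71 and 5.69 CPM at E17 and 29.1, 30.1, 33.02 and 36.3 CPM at P1 (log2 fold change 2.33 ± 0.09, adjusted p = 4.8e-18). Its partner Rom1 had a log2 fold change of 2.08. Each of the 3 genes was separated between the ages by a gap wider than the range within either age.

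The phototransduction genes were mixed. Sag, which encodes rod arrestin, measured 6.24, 4.41 and 3.93 CPM at E17 and 36.6, 34.7, 40.3 and 38.8 CPM at P1 (log2 fold change 2.74 ± 0.10, adjusted p = 2.6e-19). Pde6b, a catalytic subunit of the rod phosphodiesterase, measured 2.56, 1.85 and 1.14 CPM at E17 and 22.2, 19.8, 16.7 and 17.2 CPM at P1 (log2 fold change 2.83 ± 0.14, adjusted p = 8.7e-16). Cngb1, a subunit of the cation channel that the cascade closes, measured 0.204, 0.265 and 0.518 CPM at E17 and 11.3, 10.6, 10.3 and 6.86 CPM at P1 (log2 fold change 3.00 ± 0.15, adjusted p = 1.2e-15). Every library at P1 lay far above every library at E17 in each of them, and the rule for naming genes required no overlap in Sag and Pde6b.

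Cnga1, the partner of Cngb1, had at most 3 reads in each library at E17 and 2.58, 2.395, 1.81 and 1.42 CPM at P1, at least 6.97-fold above the floor of 3 reads per library. Gnat1, the rod transducin, did not pass the test, at 3.32 CPM at E17 and 4.23 CPM at P1 (adjusted p = 0.6), and its mean was 74.98 CPM at P6 and 3991 CPM at P15. The other 4 genes of the list that did not pass were Esrrb, Gnb1, Guca1a and Guca1b, and Guca1a had at most 3 reads in all 7 libraries.

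Pitpnm3, a phosphatidylinositol transfer gene that is active in photoreceptors, was among the 12 largest rises of genes that reached a mean of 10 CPM, at 7.87, 9.53 and 7.56 CPM at E17 and 42.8, 55.6, 45.8 and 41.5 CPM at P1 (log2 fold change 2.34 ± 0.13, adjusted p = 1.4e-14). Further photoreceptor genes outside the list were picked after their values were seen. Rbp3, the retinoid-binding protein of the space around photoreceptors, had a log2 fold change of 1.55, Pdc (phosducin) of 1.86, Abca4 of 1.86, Grk1 (a photoreceptor kinase) of 1.76, Gucy2e of 2.18, Rd3 of 1.89 and Cacna2d4 of 1.76. Each of these also passed the test.

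**Figure D2:**
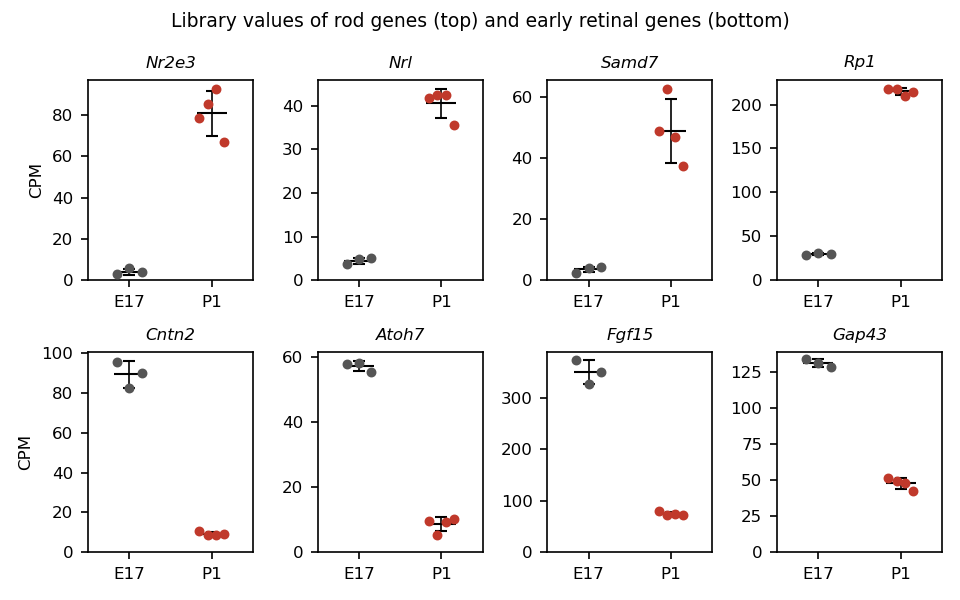
Each dot is 1 library, with bars at the mean and error bars of 1 SD, for 4 rod genes (top) and 4 genes of early retinal neurons and progenitors (bottom), in CPM on linear axes that start at 0. The E17 and P1 dots do not overlap in any of the 8 genes, which the rule for naming genes required of all but Gap43. The Nr2e3 dots lie between 2.76 and 5.74 CPM at E17 but between 66.95 and 92.5 CPM at P1.

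A short letter sequence recurs near a start site of many rod genes. CRX and OTX2 prefer DNA with the core TAATCC, which was searched for on both strands (as TAATCC or GGATTA). The search covered the 250 bases before each start site that RefSeq gives for GRCm38.p6. A gene could have several such windows and was counted if any of them held the core. Some windows, those of Sag, Nrl and Nr2e3 among them, lie inside the gene's outermost limits. Such windows were at hand for 20 of the 27 rod genes, and 10 of the 20 held the core (50%), against 7.24% of 25748 autosomal genes. Counted by window, the core was in 40% of 25 rod windows and 6.26% of 31396 autosomal windows. Of 8 cone genes with a window 2 held it, of 10 ganglion cell genes 1, of 18 glycolysis genes 4, of 21 hypoxia response genes 1, and of 17 oxidative phosphorylation genes none. A match is a description of the letters and does not show that the site is bound. As the rod list gathers genes of the rod pathway, in which OTX2 and CRX act, its share describes the list and not this comparison. Guca1a, 1 of the 10, had at most 3 reads in all 7 libraries. The windows of Samd7, Sag and Cngb1, all among the larger rises, are shown to let the core be seen in its setting, each as 120 bases 5′ to 3′ on the gene's strand, with the core in capitals and outside any annotated exon.
Samd7 (chr3:30746094-30746213, plus strand): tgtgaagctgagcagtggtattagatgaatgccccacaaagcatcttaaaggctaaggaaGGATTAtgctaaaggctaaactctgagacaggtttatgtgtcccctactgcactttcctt
Sag (chr1:87803533-87803652, plus strand): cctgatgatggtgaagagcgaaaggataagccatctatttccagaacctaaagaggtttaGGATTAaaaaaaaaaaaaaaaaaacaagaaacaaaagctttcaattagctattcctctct
Cngb1 (chr8:95306586-95306705, minus strand): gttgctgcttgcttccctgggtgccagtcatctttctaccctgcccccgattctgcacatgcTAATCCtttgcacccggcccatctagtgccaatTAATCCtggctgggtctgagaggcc
The windows of Nrl, Nr2e3, Pde6b, Rom1 and Prph2 did not hold the core, which says only that these letters are not in those 250 bases.

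Cone genes split. Of 13 tested, 4 were higher and 3 lower, with a median log2 fold change of 0.13. Opn1sw, the short-wave cone opsin, measured 9.304, 13.6 and 8.49 CPM at E17 and 40.8, 28.99, 36.4 and 47.9 CPM at P1 (log2 fold change 1.79 ± 0.14, adjusted p = 8.6e-11). Pde6h, the inhibitory subunit of the cone phosphodiesterase, measured 1.94, 3.09 and 2.38 CPM at E17 and 9.93, 9.96, 9.95 and 8.87 CPM at P1 (log2 fold change 1.63 ± 0.12, adjusted p = 9.0e-12). By contrast Pde6c, the catalytic subunit of the same enzyme, measured 16.9, 12.4 and 11.8 CPM at E17 and 7.73, 7.31, 6.56 and 8.28 CPM at P1 (log2 fold change -0.78 ± 0.14, adjusted p = 2.8e-04).

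Gnat2, the cone transducin, was lower as well (log2 fold change -0.67), while Gngt2, another subunit of that G protein, was higher (0.92). Kcne2 also passed upward, at 0.127 CPM at E17 and 0.717 CPM at P1, but did not pass in 9 of 18 alternatives. Thrb, the thyroid hormone receptor gene needed for the other cone opsin, was the third member to fall, and all isoforms are counted together in it. Its 3 libraries at E17 held 172, 153 and 163 CPM and its 4 at P1 72.98, 57.2, 75.9 and 82.7 CPM, so the mean at P1 was the lowest of the 7 ages.

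Ganglion cell genes went the other way. Of 20 tested, 17 were lower at P1 and 1 was higher, 8 of the 17 at least 2-fold, with a median log2 fold change of -0.90. The summed level lay between 2331 and 2484 CPM in the E17 libraries and between 1124 and 1323 CPM in the P1 libraries. Ganglion cells are the first neurons to be born and the only ones to send axons to the brain, and many die around birth. In CPM of whole tissue, fewer ganglion cells, less RNA per cell and a smaller share of the total cannot be told apart. In alternative fits 16 to 18 were lower.

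Among the transcription factors of the list, Ebf1 measured 197, 172 and 192 CPM at E17 and 70.9, 61.1, 66.7 and 74.9 CPM at P1 (log2 fold change -1.44 ± 0.11, adjusted p = 1.8e-11). Isl2 measured 19.1, 22.1 and 23.7 CPM at E17 and 9.44, 7.06, 8.25 and 8.99 CPM at P1 (log2 fold change -1.26 ± 0.19, adjusted p = 1.1e-05). Isl1, Ebf3 and Pou4f2, which act early in ganglion cell differentiation, had log2 fold changes of -1.13, -1.07 and -1.03. For each of these the highest library at P1 lay below the lowest at E17.

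Among axon genes, Gap43, which marks growing axons, measured 134, 131 and 128 CPM at E17 and 51.4, 49.3, 48.3 and 42.7 CPM at P1 (log2 fold change -1.44 ± 0.16, adjusted p = 6.5e-08). Sncg, gamma-synuclein, measured 72.3, 63.4 and 58.9 CPM at E17 and 23.5, 22.2, 28.4 and 24.4 CPM at P1 (log2 fold change -1.36 ± 0.16, adjusted p = 2.4e-07). Elavl4, a neuronal RNA-binding protein, had a log2 fold change of -1.24. Nefm and Nefl, the neurofilament subunits, had -0.97 and -0.81. The exception was Thy1, a surface protein of mature ganglion cells, which was higher, with 7.87, 10.5 and 11.5 CPM at E17 and 19.99, 14.6, 18.2 and 18.8 CPM at P1 (log2 fold change 0.79 ± 0.15, adjusted p = 4.0e-04).

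The largest fall of any autosomal gene belonged to Cntn2 (chromosome 1, 132509425 to 132543251), a cell adhesion protein of early axons also called TAG-1. It measured 95.6, 82.3 and 89.9 CPM at E17 and 10.5, 8.95, 8.71 and 9.46 CPM at P1, 9.48-fold lower (log2 fold change -3.12 ± 0.16, adjusted p = 4.0e-15). The mean at E14 was 203 CPM, and the means from P6 to P60 lay between 8.95 and 11.3 CPM, close to that at P1. The guidance gene Draxin, picked after its values were seen, fell too (log2 fold change -1.09).

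Among genes of inhibitory interneurons more rose than fell. Of 21 amacrine and horizontal cell genes tested, 10 were higher, 3 lower and 8 not past the test, and the median was 0.45. Gad1, which makes the transmitter GABA, measured 16.4, 20.1 and 18.1 CPM at E17 and 35.8, 45.002, 34.1 and 36.2 CPM at P1 (log2 fold change 1.01 ± 0.10, adjusted p = 3.6e-09). Slc18a3, the vesicular acetylcholine transporter, Tfap2a, an amacrine transcription factor, and Slc32a1, the vesicular carrier of GABA, had log2 fold changes of 0.94, 0.88 and 0.79, and Npy, a neuropeptide, of 0.81.

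Falling members of that list were the horizontal cell factors Onecut1 (-1.10) and Onecut2 (-0.61) and the choline transporter Slc5a7 (-1.10). Onecut1 measured 129.9, 122 and 129 CPM at E17 and 60.2, 64.5, 55.9 and 54.5 CPM at P1, with an adjusted p of 3.3e-08. The 2 genes of the cholinergic pair, Slc18a3 and Slc5a7, therefore went opposite ways, and both were under 6 CPM in all 7 libraries.

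Of 18 bipolar cell genes tested, 6 were higher and 1, Fezf2, was lower (2 without E17 replicate 1), and the median log2 fold change was -0.02. Neurod4, a factor of bipolar and photoreceptor precursors, measured 206, 199 and 186 CPM at E17 and 536, 437, 513 and 558 CPM at P1 (log2 fold change 1.36 ± 0.08, adjusted p = 1.2e-13). The calcium-binding gene Cabp5 (log2 fold change 0.94), Bhlhe22 (0.92), Prkca (0.80), Otx2 and Lhx4 (0.33) were the others that rose, Lhx4 without passing in 11 of 18 alternatives. Vsx1, Bhlhe23 and Scgn, which mark particular bipolar types, had at most 3 reads in each of the 7 libraries.

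Of 24 synaptic vesicle and release genes tested, 12 were higher, 1 was lower and 11 did not pass, and the median was 0.31. Slc17a7, the vesicular glutamate transporter of photoreceptors and bipolar cells, measured 2.25, 2.65 and 2.07 CPM at E17 and 9.199, 8.19, 6.11 and 10.1 CPM at P1 (log2 fold change 1.48 ± 0.14, adjusted p = 4.8e-09). Cplx3, the complexin of ribbon synapses, measured 14.8, 18.3 and 16.3 CPM at E17 and 50.2, 39.5, 44.2 and 46.8 CPM at P1 (log2 fold change 1.40 ± 0.13, adjusted p = 1.7e-09). Stx3, the syntaxin of ribbon synapses, and the vesicle protein Sv2b had log2 fold changes of 0.95 and 0.88.

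Of 30 cell cycle genes tested, 1 was higher, Ccne1 (0.77), and none passed downward, with a median of -0.01. By unadjusted p under 0.05 the count was 3 genes in either direction, edgeR's quasi-likelihood test gave 1 higher and 1 lower, and a fit of the 7 libraries alone gave 2 higher and 5 lower. The summed level of these genes was 6775 to 7179 CPM at E17 and 6599 to 7116 CPM at P1, ranges that overlap.

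Of 28 early progenitor and neurogenic genes tested, 10 were lower and 3 higher, with a median of -0.13. Atoh7, required for ganglion cell birth, measured 58.1, 58.4 and 55.5 CPM at E17 and 9.81, 5.42, 9.498 and 10.2 CPM at P1 (log2 fold change -2.62 ± 0.25, adjusted p = 2.7e-09). Fgf15, a growth factor of progenitors, measured 373, 327 and 349 CPM at E17 and 79.4, 72.5, 73.6 and 73.2 CPM at P1 (log2 fold change -2.21 ± 0.23, adjusted p = 1.7e-08). Neurog2, a neurogenic factor, measured 111, 107 and 114 CPM at E17 and 53.1, 56.1, 49.5 and 49.7 CPM at P1 (log2 fold change -1.07 ± 0.23, adjusted p = 0.0014).

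Sfrp2, a Wnt antagonist (-1.17), the growth arrest gene Gadd45a (-1.11) and the RNA-binding gene Igf2bp1 (-0.85) fell as well. The growth arrest gene Gadd45g, an early mark of cells leaving division, was higher, with 1.43, 1.94 and 2.48 CPM at E17 and 6.38, 8.32, 7.35 and 6.27 CPM at P1 (log2 fold change 1.46 ± 0.25, adjusted p = 1.0e-04). The count of 10 lower genes was 6 without E17 replicate 3, 6 with Xist as a covariate and 5 with a pseudocount of 0.1.

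Late progenitor genes, which include the nuclear factor I family, gave 7 higher and 2 lower of 15 tested, with a median of 0.34. Nfix measured 13.1, 17.8 and 17.5 CPM at E17 and 101, 107, 81.98 and 91.4 CPM at P1, 5.91-fold higher (log2 fold change 2.50 ± 0.13, adjusted p = 4.7e-15). Nfic, Nfib and Nfia had log2 fold changes of 1.13, 1.10 and 0.77, so all 4 family members rose and Nfix rose most. The cyclin-dependent kinase inhibitor Cdkn1c and the cyclin Ccnd3 were the 2 lower genes (-1.03 and -0.70). Nfix and Lyl1 overlap on opposite strands.

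Müller glia, the last cells to be born, were represented by 9 higher and 1 lower of 23 genes tested, with a median of 0.06. Rlbp1, a retinaldehyde-binding protein of Müller cells and pigment epithelium, measured 4.81, 6.09 and 6.32 CPM at E17 and 23.2, 12.5, 21.1 and 25.6 CPM at P1 (log2 fold change 1.64 ± 0.16, adjusted p = 7.0e-09). Apoe, the potassium channel Kcnj10 and the thyroid hormone-binding protein Crym had log2 fold changes of 0.85, 0.80 and 0.79. Hes1, a Notch target, was lower (-0.64), but not without E17 replicate 3.

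**Figure D3:**
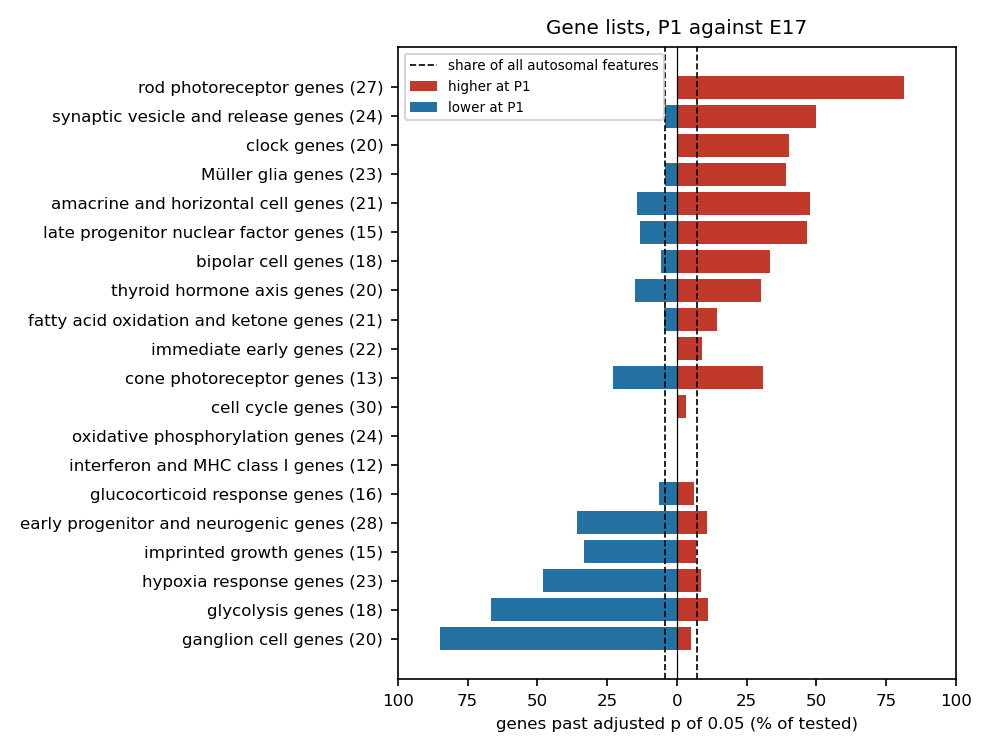
Bars give the percentage of tested genes in each of 20 lists that were higher (right, red) or lower (left, blue) at P1 by an adjusted p under 0.05, with the number of genes tested in parentheses. Dashed lines mark 7.25% higher and 4.12% lower over all autosomal features, and rod genes reach furthest right and ganglion cell genes furthest left.

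Several of the 12 largest falls were in growth factors and retinoic acid genes. Fgf3, a growth factor near Fgf15 on chromosome 7, measured 17.1, 14.4 and 14.9 CPM at E17 and 2.45, 3.15, 1.58 and 2.25 CPM at P1 (log2 fold change -2.31 ± 0.22, adjusted p = 3.1e-09). Aldh1a3, which makes retinoic acid in the ventral retina, measured 52.1, 53.5 and 54.05 CPM at E17 and 16.3, 14.9, 14.5 and 13.96 CPM at P1 (log2 fold change -1.77 ± 0.17, adjusted p = 4.9e-09). Crabp2, which carries retinoic acid to its receptors, measured 32.9, 30.4 and 28.9 CPM at E17 and 8.46, 6.68, 9.498 and 7.93 CPM at P1 (log2 fold change -1.80 ± 0.23, adjusted p = 1.3e-06). Genes of the 12 largest falls were named only if their E17 and P1 libraries did not overlap, so the separation of these 3 genes was set by that choice.

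Igfbpl1, an insulin-like growth factor binding protein relative found in newborn neurons, measured 16.4, 15.001 and 16.05 CPM at E17 and 4.17, 4.03, 3.05 and 2.48 CPM at P1 (log2 fold change -1.94 ± 0.21, adjusted p = 6.0e-08). Vcan, a matrix proteoglycan, measured 273, 252 and 253 CPM at E17 and 90.3, 79.04, 90.9 and 95.6 CPM at P1 (log2 fold change -1.54 ± 0.14, adjusted p = 1.5e-09). Irx2, an Iroquois homeobox gene, measured 30.9, 28.6 and 25.5 CPM at E17 and 8.59, 9.08, 8.48 and 9.46 CPM at P1 (log2 fold change -1.56 ± 0.22, adjusted p = 4.7e-06). The remaining falls of this size were in Stc2, a secreted glycoprotein (-1.76), the chloride channel Ano1 (-1.75) and Egfem1 (-1.75).

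Most glycolytic genes were lower at P1 than at E17. This pathway splits glucose to pyruvate and lactate, and the adult retina depends on it to an unusual degree. Of 18 genes tested, 12 were lower at P1 and 2 higher, 7 of the 12 at least 2-fold, with a median log2 fold change of -0.79. The summed level lay between 2142 and 2181 CPM in the E17 libraries and between 1067 and 1314 CPM in the P1 libraries. The count of lower genes was 12 in every alternative, including those without single libraries.

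Tpi1, triosephosphate isomerase, measured 85.4, 93.8 and 94.7 CPM at E17 and 46.6, 29.6, 35.4 and 38.1 CPM at P1 (log2 fold change -1.28 ± 0.12, adjusted p = 2.9e-09). Hk2, the inducible hexokinase, measured 30.9, 35.1 and 38.5 CPM at E17 and 17.9, 10.6, 13.6 and 14.4 CPM at P1 (log2 fold change -1.26 ± 0.14, adjusted p = 3.9e-08). Slc16a3, an exporter of lactate, measured 32.3, 34.3 and 38.5 CPM at E17 and 19.6, 10.8, 11.99 and 15.1 CPM at P1 (log2 fold change -1.26 ± 0.16, adjusted p = 1.1e-06). P1 replicate 2 was the lowest library of its age in these 3 genes, and in 11 of the 12 lower genes.

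Pfkl, a phosphofructokinase, measured 121, 130.0 and 138 CPM at E17 and 65.7, 43.7, 60.3 and 56.7 CPM at P1 (log2 fold change -1.20 ± 0.12, adjusted p = 5.4e-09). Aldoa (chromosome 7, 126795234 to 126800994), aldolase A, measured 164, 166 and 181 CPM at E17 and 85.2, 58.6, 85.3 and 78.2 CPM at P1 (log2 fold change -1.15 ± 0.11, adjusted p = 3.4e-09). Gpi1, the isomerase of the second step, measured 158, 153 and 148 CPM at E17 and 86.3, 65.7, 78.02 and 71.7 CPM at P1 (log2 fold change -1.02 ± 0.10, adjusted p = 5.4e-09). Pfkp, Eno1, Pgam1, Ldha, Pkm and Gapdh made up the rest, with log2 fold changes of -0.85 for Eno1, -0.76 for Pkm and -0.72 for Gapdh, the smallest fall of the 12. The 2 higher genes were the neural isoforms Aldoc (0.57) and Eno2 (0.51).

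The low values at P1 were a trough in the course of the 7 ages. In 10 of the 12 lower genes the mean at P1 was the lowest of the 7 ages, and in the other 2 (Hk2 and Slc16a3) the lowest mean was at P6. In 10 of the 12 the mean at P6 was above that at P1, in 9 of them every P6 library lay above every P1 library, and in 10 the mean at P15 exceeded that at E17. As the 12 genes were chosen for being lower at P1, part of the later rise can follow from that choice. The share of all autosomal features with such separation between P1 and P6 was not counted. Aldoa, for instance, had means of 126, 171, 76.8, 273, 541, 591 and 642 CPM from E14 to P60.

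**Figure D4:**
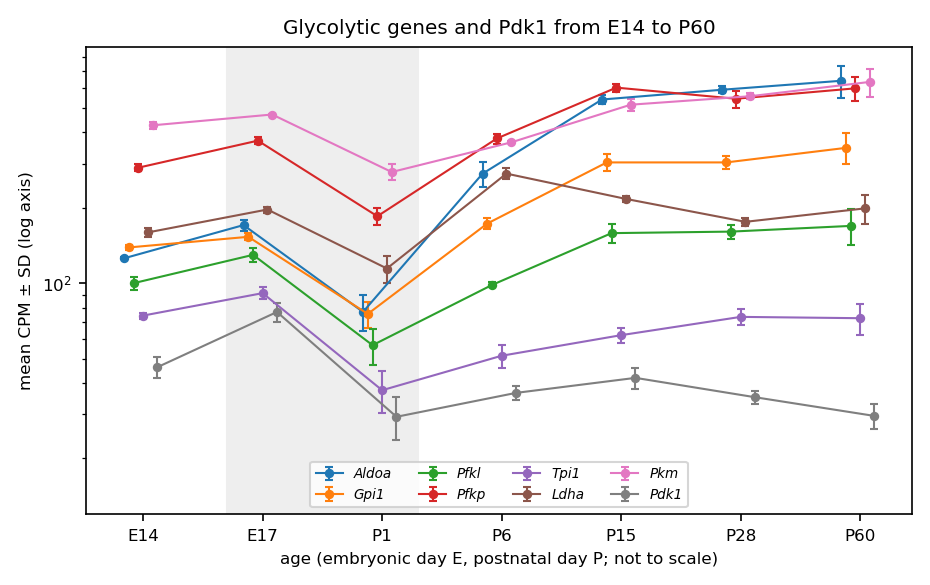
Mean CPM on a log axis, with error bars of 1 SD over 3 to 6 libraries, for 7 glycolytic genes and Pdk1 at the 7 ages, with E17 and P1 shaded. All 8 lines fall from E17 to P1, and all but Pdk1 rise again well past their P1 value.

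Of 23 hypoxia response genes tested, 11 were lower, 2 higher and 10 not past the test, 5 of the 11 at least 2-fold, with a median of -0.50. Only 1 gene is in both lists, and among the other 22 hypoxia genes 10 were lower and 2 higher. Pdk1, the kinase that keeps pyruvate out of mitochondria, measured 70.7, 83.7 and 75.999 CPM at E17 and 35.3, 22.3, 27.4 and 32.3 CPM at P1 (log2 fold change -1.38 ± 0.12, adjusted p = 1.1e-09). Bnip3, an inducer of mitochondrial turnover, measured 24.8, 27.7 and 31.1 CPM at E17 and 12.5, 9.33, 13.2 and 10.8 CPM at P1 (log2 fold change -1.22 ± 0.14, adjusted p = 1.2e-07).

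Vegfa, the vessel growth factor that astrocytes and neurons release under low oxygen, measured 231, 248 and 274 CPM at E17 and 158, 138, 131 and 118 CPM at P1 in the larger of its 2 entries (log2 fold change -0.88 ± 0.19, adjusted p = 0.0015). Stc2, Egln3, an oxygen-sensing hydroxylase, and Pfkfb3, a regulator of glycolysis, had log2 fold changes of -1.76, -1.13 and -0.95. The 2 higher genes were Ndrg1 (1.11), which is also a gene of glia and of growth arrest, and Mxi1 (0.37), and Mxi1 did not pass in 10 of the 18 alternatives. Hif1a, whose protein rather than RNA is set by oxygen, was at 559 CPM and 606 CPM and did not pass (adjusted p = 0.68), whereas Epas1, the gene for its relative HIF-2 alpha, was higher (log2 fold change 1.30 ± 0.13, adjusted p = 9.1e-09). Both were looked at after values were seen.

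Of 24 oxidative phosphorylation genes tested, none passed in either direction by limma or by edgeR, none had an unadjusted p under 0.05, and the log2 fold changes ran from -0.17 to 0.25. The summed level was 1032 to 1062 CPM at E17 and 991 to 1120 CPM at P1. Fatty acid oxidation and ketone genes gave 3 higher and 1 lower of 21. Ppara, the fat-sensing nuclear receptor, measured 0.102, 0.353 and 0.311 CPM at E17 and 2.09, 1.51, 1.36 and 1.54 CPM at P1 (log2 fold change 1.06 ± 0.15, adjusted p = 4.1e-06), and its coactivator Ppargc1a had a log2 fold change of 0.63.

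The core letters to which hypoxia-inducible factors bind, ACGTG (or CACGT on the other strand), were searched for in the same 250-base windows. They were present in 15 of 21 hypoxia response genes with a window (71.4%) and 8 of 18 glycolysis genes (44.4%), against 18.6% of 25748 autosomal genes, 37.5% of 8 cone genes, 30% of 10 ganglion cell genes, 23.5% of oxidative phosphorylation genes and 10% of rod genes. As the hypoxia list gathers known targets and the glycolysis list the genes of a pathway, their shares describe the lists and not this comparison. No window of Tpi1, Pfkl, Gpi1, Pfkp, Eno1 or Gapdh, all lower at P1, held these letters. Windows of Pfkm and Slc16a1, which did not pass the test, did hold them. ACGTG is contained in CACGTG, which other factors, the clock proteins among them, also bind. Ldha and Pgam1, both lower at P1, are shown because their windows hold the most matches and a single match, again as 120 bases with the core in capitals and no annotated exon in the stretch.
Ldha (chr7:46845655-46845774, plus strand): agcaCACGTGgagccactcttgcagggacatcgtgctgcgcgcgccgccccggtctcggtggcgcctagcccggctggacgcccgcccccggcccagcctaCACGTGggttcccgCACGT
Pgam1 (chr19:41911697-41911816, plus strand): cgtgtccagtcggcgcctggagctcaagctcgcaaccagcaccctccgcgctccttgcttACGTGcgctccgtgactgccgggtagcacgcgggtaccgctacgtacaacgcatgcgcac
In Ldha, 5 matches overlap at 3 places, since CACGTG reads the same on both strands and counts once on each. Ldha fell by 0.78 and Pgam1 by 0.80 on the log2 scale.

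Of 20 clock genes tested, 8 were higher, none lower and 12 not past the test, and the median was 0.37. Per3 measured 22.7, 22.1 and 22.4 CPM at E17 and 41.8, 61.6, 42.1 and 36.3 CPM at P1 (log2 fold change 0.96 ± 0.11, adjusted p = 6.1e-08). Tef, an output factor of the clock, measured 40.2, 41.2 and 41.6 CPM at E17 and 63.7, 116, 71.6 and 71.6 CPM at P1 (log2 fold change 0.92 ± 0.12, adjusted p = 7.9e-07). Nr1d1 and Nr1d2, the repressors of the second clock loop, had log2 fold changes of 0.72 and 0.78, Hlf of 0.79, Clock of 0.50 and Cry2 of 0.43.

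In all 8 clock genes that rose, P1 replicate 2 was the highest library of its age. Without that library 7 of the 20 passed, Cry2 being lost (adjusted p = 0.064). Samples were taken over a window of 4 hours, and no time is given for single libraries, so the part of sampling time was not tested.

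Of 20 thyroid hormone axis genes, 6 were higher and 3 lower. Hr, a corepressor and a classic target of thyroid hormone, measured 1.64, 2.29 and 1.66 CPM at E17 and 5.89, 5.17, 6.33 and 4.61 CPM at P1 (log2 fold change 1.18 ± 0.18, adjusted p = 2.1e-05), while Dio3, which inactivates the hormone, measured 5.11, 6.71 and 4.35 CPM at E17 and 2.09, 1.64, 1.13 and 2.13 CPM at P1 (log2 fold change -1.22 ± 0.18, adjusted p = 1.1e-05). The hormone carriers Slco4a1 and Slc7a8 and the target Klf9 had log2 fold changes of 0.88, 0.55 and 0.63. With Xist as a covariate 3 of the list were higher. Slc7a8 did not pass in 13 of 18 alternatives, and Klf9 was at 0.30 with Xist as a covariate (adjusted p = 0.43 by limma).

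Of 16 glucocorticoid response genes tested, 1 was higher (Klf9, lost with Xist as a covariate) and 1 lower (Hif3a, -1.19), and 5 had an unadjusted p under 0.05. The count of higher genes was 2 without E17 replicate 1 and without P1 replicate 2. Of 22 immediate early genes 2 were higher, Egr1 (1.21) and Btg2 (0.67). Interferon and MHC class I genes gave none of 12 in either direction by limma or edgeR, with 1 at an unadjusted p under 0.05. Of 15 imprinted growth genes, 5 were lower and 1 higher. Cdkn1c, Grb10 (-0.76), Zim1 (-0.64), Plagl1 (-0.60) and Igf2r (-0.41) fell, and Igf2, a fetal growth factor, rose (0.68). Igf2r did not pass in 9 of 18 alternatives and Zim1 in 5 of 17. The count of lower genes was 3 without E17 replicate 1, without E17 replicate 3, without P1 replicate 2 and with Xist as a covariate.

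A small set of genes peaked at P1. By the ratio of the P1 mean to the highest other mean, Lhx9 (chromosome 1, 138825186 to 138848839), a LIM homeobox gene of amacrine and other neurons, came first, with 31.6, 36.4 and 33.2 CPM at E17 and 121, 92.7, 107 and 118 CPM at P1 (log2 fold change 1.67 ± 0.19, adjusted p = 1.6e-07). D030068K23Rik, a long noncoding RNA, measured 4.19, 5.65 and 4.87 CPM at E17 and 19.99, 19.03, 16.8 and 22.2 CPM at P1 (log2 fold change 1.80 ± 0.19, adjusted p = 4.6e-08). Slc30a10, a manganese exporter, measured 30.9, 33.2 and 33.7 CPM at E17 and 73.3, 92.7, 82.8 and 77.5 CPM at P1 (log2 fold change 1.29 ± 0.18, adjusted p = 5.3e-06). By P6 the means of these 3 genes were 31.1, 7.25 and 31.9 CPM, each under the P1 range. Lower means at the other ages follow from the choice of genes that peak at P1.

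Mcam, a cell adhesion molecule of vessels and neurons, and Cd1d1, a lipid-presenting molecule of the immune system, completed the 5, with log2 fold changes of 1.29 and 1.28. Mcam measured 16.1, 21.4 and 17.9 CPM at E17 and 48.2, 41.2, 52.1 and 44.7 CPM at P1. Cd1d1 measured 4.19, 3.44 and 5.38 CPM at E17 and 11.5, 12.2, 12.2 and 11.2 CPM at P1. Among the largest rises, Pou3f3, a POU-domain factor of interneurons, had its highest mean at P1 too, with 1.33, 0.706 and 1.04 CPM at E17 and 10.7, 9.83, 13.2 and 10.4 CPM at P1 (log2 fold change 2.58 ± 0.19, adjusted p = 1.9e-11).

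**Figure D5:**
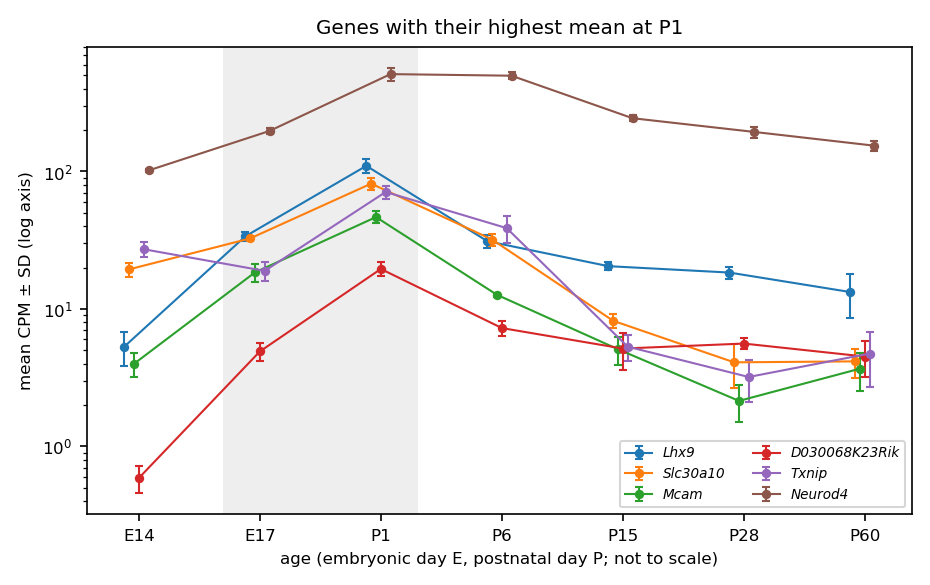
Mean CPM on a log axis, with error bars of 1 SD over 3 to 6 libraries, at 7 ages for 6 genes whose highest mean was at P1, with E17 and P1 shaded. Lhx9 climbs from 33.7 to 109.9 CPM between E17 and P1 and is at 31.1 CPM at P6, while Neurod4 stays near its P1 mean at P6.

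The 5 genes with the deepest dip at P1 were Gm10287, Gpi1, Pfkl, Thrb and Aldoa, 3 of them glycolytic. Gm10287 (chromosome 3, 149221687 to 149225745), a noncoding RNA gene without a known role, measured 23.2, 19.1 and 24.2 CPM at E17 and 6.26, 8.95, 7.01 and 8.04 CPM at P1 (log2 fold change -1.44 ± 0.20, adjusted p = 5.5e-06), and its mean at P6 was 15.2 CPM. Of the largest rises not yet named, C1ql2, a synaptic organizer of the C1q family, measured 0.613, 2.74 and 2.17 CPM at E17 and 14.4, 11.8, 12.4 and 11.9 CPM at P1 (log2 fold change 2.35 ± 0.19, adjusted p = 1.4e-10).

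Some further groups were picked after their values were seen. Txnip, which restrains glucose uptake and is induced by glucose, measured 21.5, 19.5 and 15.7 CPM at E17 and 78.9, 66.7, 75.9 and 62.2 CPM at P1 in its larger entry (log2 fold change 1.86 ± 0.24, adjusted p = 9.2e-07), and its mean fell to 5.31 CPM by P15. Its relative Arrdc4 had a log2 fold change of 0.64. Txnip overlaps Gm15441 on the opposite strand. Hkdc1, a hexokinase relative, measured 26.4, 31.6 and 30.03 CPM at E17 and 82.1, 56.6, 98.6 and 82.2 CPM at P1 (log2 fold change 1.39 ± 0.27, adjusted p = 5.2e-04), and Slc2a4, the insulin-responsive glucose transporter, had a log2 fold change of 1.20.

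Of 15 genes of the amino acid response, which cells switch on when amino acids run short, 7 were lower and 1 higher. Asns, asparagine synthetase, measured 21.7, 22.6 and 24.7 CPM at E17 and 8.83, 6.81, 6.56 and 8.04 CPM at P1 (log2 fold change -1.49 ± 0.14, adjusted p = 1.5e-09). Sesn2, Slc7a11, Chac1, Atf5, Pycr1 and Mthfd2 had log2 fold changes from -0.88 to -0.58. Atf4, whose protein drives the response and is set mostly by translation, was the higher gene (0.38).

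Of the 6 Iroquois genes 4 were lower and 1 higher, with Irx1 at -1.18, Irx4 at -1.12 and Irx3 at -0.72, and Irx5 at 0.92 on the log2 fold change scale. Of 6 insulin-like growth factor binding genes tested 3 were lower, Igfbp2 (-1.53) and Igfbp5 (-1.11) besides Igfbpl1. P2rx3, Pirt and Scn9a, better known from sensory neurons of the body, measured 20.2, 19.4 and 104 CPM on average at E17 and 7.38, 7.11 and 44.4 CPM at P1, with log2 fold changes of -1.36, -1.36 and -1.21.

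Of 75 autosomal genes tested with symbols that begin with Kcn, 22 were higher and 9 lower. Such symbols name accessory subunits, Kcne2 among them, as well as potassium channels. Kcna5 measured 7.16, 13.7 and 10.6 CPM at E17 and 39.6, 33.03, 37.9 and 45.3 CPM at P1 (log2 fold change 1.83 ± 0.16, adjusted p = 1.1e-09). Kcnv2, a photoreceptor channel subunit, and Kcnj6 had log2 fold changes of 1.78 and 1.85. Single matrix genes went both ways, with Tnc at 1.75, Prelp at 1.69, Lamc3 at 2.02 and Col2a1 at 1.20, while Vcan fell.

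A few transcription factors with low levels at E17 also stood out. Tfap2e measured 0.613, 0.441 and 0.207 CPM at E17 and 10.4, 8.82, 7.69 and 8.399 CPM at P1 (log2 fold change 2.79 ± 0.23, adjusted p = 1.7e-10). Gbx2 had at most 3 reads in each library at E17 and 7.604, 3.78, 3.51 and 4.73 CPM at P1, at least 16.7-fold above the floor of 3 reads. Hey2 (2.09) and Maf (1.31) rose as well, and the 4 genes had their highest mean at P1.

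Markers of other cells in the dissection summed to low levels, apart from those of vessels and of astrocytes and optic nerve glia. Of 10 neural retina identity genes, all were present, and their sum was 2326 to 2363 CPM at E17 and 2641 to 2715 CPM at P1. Lens markers summed to 5.56 to 7.26 CPM at E17 and 6.93 to 10.5 CPM at P1, with none of 6 past the test by limma or edgeR, and Cryaa, Cryab and Crybb2 had at most 3 reads in every library. Pigment epithelium markers summed to 11.9 to 17.5 CPM and 16.1 to 32.0 CPM, with Mitf higher (1.15) of 12 tested and Rpe65 at most 3 reads.

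Blood markers summed to 3.37 to 9.73 CPM at E17 and 2.25 to 4.98 CPM at P1, and Hba-a1, a globin gene, was the lower one of 4 tested (-1.47). Microglia and macrophage markers gave none of 11 past the test by limma or edgeR, with sums of 21.5 to 23.7 CPM and 24.1 to 32.1 CPM. Ocular mesenchyme markers gave none of 6, with 2 at an unadjusted p under 0.05. Surface epithelium and muscle markers gave 2 higher of 4 tested by limma and 1 by edgeR, and none lower. Their sums were 10.6 to 10.9 CPM at E17 and 10.4 to 14.9 CPM at P1.

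Vessel markers summed to 329 to 351 CPM at E17 and 438 to 506 CPM at P1, with Kdr (0.54) and the pericyte gene Rgs5 (1.69) higher of 17 tested and the other 15 not past the test. Kdr is also a gene of neural retina. Rgs5 measured 0.102, 0.353 and 0.621 CPM at E17 and 2.698, 4.16, 2.94 and 3.67 CPM at P1. Markers of astrocytes and optic nerve glia, cells that enter from the optic nerve, summed to 85.2 to 89.8 CPM at E17 and 138 to 166 CPM at P1.

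In that list 4 of 9 tested were higher, Gfap (1.40), Pdgfra (1.11), Fabp7 (0.90) and S100b (0.75). The other 5 did not pass, and the lowest log2 fold change of the list was -0.65. Libraries of the 2 ages did not overlap upward in 5 and downward in 1 of the 9, against 16.7% and 11.7% of all autosomal features. Pdgfra measured 7.36, 8.38 and 6.32 CPM at E17 and 15.9, 16.1, 18.7 and 17.03 CPM at P1 (log2 fold change 1.11 ± 0.17, adjusted p = 2.4e-05). Gfap was highest in P1 replicate 3, at 11.4 CPM. The part of arriving glia and vessels in the glycolysis and hypoxia results was not tested.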

How the data were processed

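RNA-seq of 27 whole retina libraries was used through 1 table of CPM that the authors deposited. Reads were aligned with STAR to mm10 per the labels. The study's methods name STAR as the source of the CPM too, and the annotation and the use of strand in counting are not given in the sources used here. The authors' CPM values divide each read count by the library's total, and 100% of them were whole multiples of 1 read, from which depths of 7931765 to 11330762 reads per library of E17 and P1 were recovered.

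Entries reaching 1 CPM in 3 or more libraries entered the fit on log2(CPM + 1), in which limma 3.58.1 (R 4.3.3) modelled age over the 27 libraries, and P1 was compared against E17 and p-values adjusted by Benjamini-Hochberg over 31760 features. Adding 1 CPM makes the fold changes of weakly expressed genes look smaller than they were. Errors given with a log2 fold change are standard errors of that fit. edgeR 4.0.16 on the recovered reads was an alternative. The same steps were tested on simulated data of 31854 tested features, with a spread between libraries that was set by formula. By adjusted p and direction alone, limma recovered 99% of genes changed 2-fold and 100% of those changed 4-fold. All these genes were set at 10 CPM or more at E17. For those changed 2-fold, the median absolute log2 fold change was 0.97, below the 2-fold minimum of a changed feature.

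Genes were placed by Gene ID with a GRCm38 annotation, and 11537 tested entries could not be placed and are outside the autosomal counts. The text names the 12 largest rises and falls among changed autosomal genes with a Gene ID, no overlap of libraries and a mean of at least 10 CPM at the higher age, the 5 largest peaks and dips at P1 among them, and up to 6 members of each list in each direction, largest first. The members and lists were chosen with earlier results of these data known, and further list members and the genes said to be picked lie outside this rule and were named after their values were seen. Replicates are separate libraries of pooled retinas, and all pairs within an age differed beyond sampling noise. Deviations of libraries with the same replicate number at E17 and P1 had correlations of -0.089, -0.014 and -0.003. Between different numbers they ran from -0.004 to 0.061. This gave no sign of pairing by number, but it cannot exclude a shared batch. Promoter windows came from RefSeq for GRCm38.p6. Some list members are not reported here. Alternatives changed the pseudocount, the filter, the scaling, the tool, the libraries and the covariates.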

Additional observations from a re-analysis of the deposited data

Results flagged for a closer look

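Among 187 genes checked for a P1 library that stands apart from the other 3, 11 were flagged, and chance flags about 1 in 20 such groups. The 3 libraries of E17 were too few for this check. P1 replicate 4 was low in Nrl, at 35.5 CPM against 41.7 to 42.5 CPM, and in Pde6h, at 8.87 CPM against 9.93 to 9.96 CPM. P1 replicate 2 was low in Atoh7, at 5.42 CPM against 9.50 to 10.2 CPM, and high in Tef, at 116 CPM against 63.7 to 71.6 CPM. P1 replicate 1 was high in Fgf15, at 79.4 CPM against 72.5 to 73.6 CPM, and in Sfrp2, at 34.8 CPM against 25.2 to 26.6 CPM. P1 replicate 3 was high in Xist, at 1093 CPM, and low in the Y-linked genes Ddx3y at 0 CPM, Uty at 0.226 CPM, Eif2s3y at 0.339 CPM and Kdm5d at 0.339 CPM.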

How the results depend on the processing

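The counts of changed autosomal features moved most with choices that act on low values or on the fold. Against 269 higher and 116 lower, a pseudocount of 0.1 gave 455 and 179, a mean of at least 10 CPM gave 174 and 69, edgeR gave 427 and 230, and no minimum fold change gave 1411 and 803. edgeR without E14 replicate 1, chosen after seeing the data, gave 426 and 225. Leaving out 1 library at a time gave 252 to 272 higher and 109 to 138 lower. Early progenitor genes counted lower were 10, and were 5 with a pseudocount of 0.1, 6 with Xist as a covariate and 6 to 9 with 1 library left out, 6 being the count without E17 replicate 3. Without single libraries the rod genes counted higher were 21 to 22, the ganglion cell genes lower 16 to 18, the glycolysis genes lower 12 and the clock genes higher 7 to 10. The replicate block, with numbers that gave no sign of pairing the libraries, gave 268 higher and 120 lower. Single genes were refitted for the 12 largest rises and falls, the peaks and dips and the 20 main lists, not for markers or genes picked later. None of the 181 called among them changed direction. With Xist as a covariate 25 of the 181 lost their call, and without E17 replicate 3 it was 18. The cause of these changes was not tested. At these depths values under about 0.3 CPM rest on 3 reads or fewer.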

Other observations

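Genes of metabolism outside the comparisons above also differed between the ages. Ndufa4l2, a hypoxia-induced relative of a complex IV subunit, measured 40.6, 42.97 and 44.9 CPM at E17 and 22.8, 14.2, 21.03 and 17.5 CPM at P1 (log2 fold change -1.16 ± 0.22, adjusted p = 3.6e-04), and Mif, a cytokine gene that low oxygen also induces, had a log2 fold change of -1.07. Galk1, galactokinase, and Eif4ebp1, a brake on translation, were lower as well (-1.06 and -1.40). These genes, and those of the next paragraph, were picked after their values were seen.

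Of 9 retinoic acid genes tested, 2 were lower, Crabp2 and Aldh1a3, and 1 was higher, Crabp1 (0.73), a second carrier of retinoic acid. Penk, the enkephalin precursor, measured 17.2, 13.9 and 17.6 CPM at E17 and 5.27, 5.67, 5.43 and 3.79 CPM at P1 (log2 fold change -1.52 ± 0.21, adjusted p = 3.7e-06). Robo3, a guidance receptor, was higher (1.21), while the netrin receptor Unc5b was lower (-1.07). Further neuropeptide and receptor genes, Gal and Prokr2, had log2 fold changes of -1.28 and -1.01.

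P1 replicate 2 was the highest of the 4 libraries in 8 of 8 clock genes that rose, the lowest in 11 of 12 glycolysis genes that fell, and the lowest in 10 of 17 ganglion cell genes that fell. It was the highest in 3 of 22 rod genes that rose. The same was not counted over all autosomal features, so whether the pattern is particular to these lists was not tested. P1 replicate 2 also held the fewest reads of its age, 7931765.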
